A study of Mus musculus with 4 samples.

Results

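Major histocompatibility complex (MHC) class II presentation was described through 8 genes named for their role in it: Cd74, H2-Aa, H2-Ab1, H2-Eb1, H2-DMa, H2-DMb1, H2-DMb2 and Ciita. All 8 were among the 17117 genes of the count table, and all were followed in alveolar cells, 7846 of the 9827 cells kept. Alveolar cells were those with at least 2% of their transcripts from Sftpc, the surfactant protein C gene, or with at least 1 transcript of Cldn4, and with 0 transcripts of Ptprc, Pecam1 and Col1a2, which mark leukocytes, endothelium and fibroblasts. In all 4 groups the mice carried Sftpc-CreER, a Cre recombinase that tamoxifen activates and that is made where the Sftpc promoter is on, together with the Rosa26-mTmG reporter, which turns a recombined cell GFP+. Control mice were Cdc42flox/+, so that they too carried 1 floxed allele of Cdc42, a small GTPase of cell polarity and actin, and Cdc42 AT2 null mice were Cdc42flox/-. Mice of both genotypes received 4 doses of tamoxifen and were either sham treated or studied on day 21 after pneumonectomy (PNX), the surgical removal of part of the lung, and the labels give postnatal day 80 for every group. GFP+ cells were sorted from digested lungs and sequenced with the 10x Genomics 3′ method, 1 library per group, here called control sham and control PNX for the first genotype, and null sham and null PNX for the other. How many mice went into a library is not stated in those labels.

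MHC class II molecules carry peptides from the endosomal pathway to the cell surface, where CD4+ T cells read them. An α chain (H2-Aa) pairs with a β chain (H2-Ab1) to form the mouse I-A molecule, and H2-Eb1 is the β chain of the other mouse molecule, I-E. The invariant chain, encoded by Cd74, chaperones new αβ pairs and blocks their groove, and H2-DM, made of H2-DMa with H2-DMb1 or H2-DMb2, then helps to exchange its remnant for peptide. Ciita is the coactivator that switches these genes on at promoters that hold an X box and a Y box. Dendritic cells, B cells and macrophages are the professional class II cells, and alveolar type II (AT2) cells, which secrete surfactant and renew the alveolar epithelium, are unusual among epithelial cells in carrying class II without infection.

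In the mm10 build with the GENCODE M21 annotation, the 6 H2 genes lie within 197 kb on chromosome 17, from 34119541 to 34316674, in the order H2-DMa, H2-DMb2, H2-DMb1, H2-Ab1, H2-Aa and H2-Eb1. RefSeq promoter sequences of GRCm38.p6, 250 bases before to 50 after a start, were matched for 5 of the 8 genes, and not for Cd74, H2-Ab1 and Ciita. They are shown because most of the 8 genes vary together below, while H2-Eb1 and, to a smaller extent, H2-DMb2 depart from them. Each line gives the stretch around the letters CNNNNAAC (an X box core) and TGATTGG (a Y box) on the strand of the gene, with both motifs in capitals.
H2-Aa, chr17:34287857-34287932, minus strand: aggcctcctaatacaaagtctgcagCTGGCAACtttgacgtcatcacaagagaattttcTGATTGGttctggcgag
H2-Eb1, chr17:34305748-34305822, plus strand: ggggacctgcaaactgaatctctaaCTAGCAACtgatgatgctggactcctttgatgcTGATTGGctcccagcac
H2-DMb2, chr17:34145098-34145173, plus strand: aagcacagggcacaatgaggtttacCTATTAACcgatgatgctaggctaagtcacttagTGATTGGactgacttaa
The motifs were 26 bases apart at H2-Aa and H2-DMb2 and 25 at H2-Eb1. The H2-Aa and H2-Eb1 stretches lie before the annotated gene, and the H2-DMb2 stretch lies inside the annotated span of H2-DMb2 but in none of its exons. Searched on both strands with 22 to 28 bases between the motifs, the pair was found in 4 of the 5 genes with a sequence (H2-Aa, H2-Eb1, H2-DMb1 and H2-DMb2, not H2-DMa) and in 67 of 32851 promoters of that length, 0.204%. Alone, TGATTGG was in 7.82% of the promoters and CNNNNAAC in 81.6%. The spacing was set after these sequences had been viewed. In these reference sequences H2-Eb1 therefore held both motifs, as did H2-Aa, its neighbour on the chromosome.

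After the filter, alveolar cells numbered 1628 in control sham and 1924 in control PNX, and 2539 in null sham and 1755 in null PNX; lists of 4 values below keep this order. Their median count of unique molecular identifiers (UMIs, 1 for each captured transcript) was 4808, 4864, 5189 and 10705, so null PNX cells were about 2 times as deep as the others. Cldn4, a marker of the transitional state between AT2 and alveolar type I cells, was seen in 0, 3, 69 and 945 of them, and 0, 1, 19 and 395 had under 2% Sftpc and so entered through Cldn4 alone. In null PNX a Cldn4 UMI was also seen in 12 of 111 T cells, 7 of 25 dendritic cells and 6 of 63 macrophages, so that 1 UMI does not by itself show expression in a cell. All 9 AT2 markers checked (Sftpa1, Sftpb, Sftpd, Lamp3, Abca3, Slc34a2, Napsa, Cxcl15 and Etv5) were detected in every library. Just under the Sftpc limit, at 1% to 2% with Cldn4 at 0, were 43, 5, 29 and 23 cells, and just over it, at 2% to 3%, were 2, 17, 169 and 83. Cdc42 itself stood at 183, 224, 265 and 409 CPM (counts per 1000000 summed UMIs) in alveolar cells, which checks no deletion, since the reads come from the 3′ end and the labels do not name the floxed exon. Because each group is 1 library, no difference below has a replicate check or a p-value, and the 95% intervals (exact Poisson for levels, exact binomial for ratios, Clopper-Pearson for shares) cover counting error only.

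Cd74 and the I-A chains were lowest in null sham and highest in null PNX. Cd74, the invariant chain, lies on chromosome 18 (60803848 to 60812652). It was measured at 4653 CPM in control sham (interval 4606–4700), next to 5298 in control PNX (5252–5344), against 3623 in null sham (3592–3654) and 7710 in null PNX (7672–7749). No 2 of these intervals overlapped. H2-Aa, the I-A α chain, was at 1484, 1855, 1181 and 1965 CPM in the same order of libraries. H2-Ab1, its β chain, was at 932, 1084, 660 and 1461 CPM. All 3 genes thus had 1 order in CPM, from null sham through control sham and then control PNX up to null PNX, with neighbours further apart than their counting intervals. For H2-Aa the last step, from control PNX to null PNX, was smaller than the ratio of 1.19 of the median gene between these libraries. The proportion of the I-A chains moved less than their level: H2-Ab1 made up 38.6%, 36.9%, 35.9% and 42.6% of H2-Aa plus H2-Ab1 UMIs.

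The peptide exchange genes followed a similar order at lower counts. H2-DMa was at 102 CPM in control sham (95.2–109), next to 111 in control PNX (104–118), with 59.3 in null sham (55.4–63.4) and 142 in null PNX (137–147). The control libraries could not be separated by counting error for H2-DMa, while null sham lay under them and null PNX over them. H2-DMb1 was at 113, 135, 84.0 and 166 CPM and so kept the order of Cd74. H2-DMb2 was at 38.8 CPM in control sham (34.6–43.4) against 75.2 in control PNX (69.9–80.9), and at 43.7 in null sham (40.3–47.3) against 76.5 in null PNX (72.7–80.5). It therefore sorted by surgery, with both sham libraries low and both PNX libraries high, and within each pair the intervals overlapped. H2-DMb1 and H2-DMb2 are close copies of each other, so how the authors' counting assigned reads between them is uncertain. Ciita, the coactivator, on chromosome 16 (10480059 to 10528418), was barely captured, with 18, 38, 35 and 123 UMIs over all alveolar cells, or 2.24 CPM (1.33–3.54), 3.87 (2.74–5.31), 2.46 (1.72–3.42) and 6.15 (5.11–7.34). Its level in null PNX lay over those of both sham libraries, and the interval of control PNX overlapped all of the others.

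**Figure D1:**
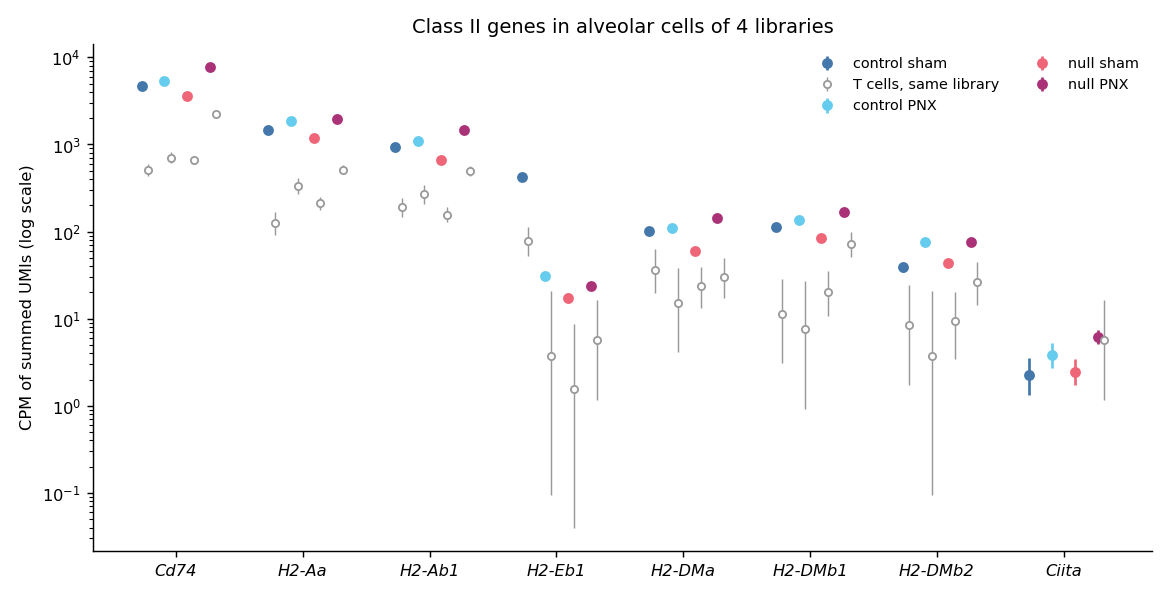
Levels of the 8 genes in alveolar cells of the 4 libraries (filled points) and in T cells of the same library (open grey points), as CPM of summed UMIs on a log axis, with bars for exact Poisson 95% intervals; T cell Ciita had 0 UMIs in 3 libraries and is not drawn there. Cd74 runs from 3623 CPM in null sham to 7710 in null PNX, and H2-Eb1 stands at 422 CPM in control sham against 17.3 to 30.8 in the other libraries.

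H2-Eb1, the I-E β chain, departed most from the order of Cd74. It was at 422 CPM in control sham (408–437), but at 30.8 in control PNX (27.5–34.5), and at 17.3 in null sham (15.2–19.6) and 23.4 in null PNX (21.4–25.7). Control sham stood alone, and the 3 other libraries were low whatever their genotype or surgery. An H2-Eb1 UMI was seen in 67.8%, 13.6%, 8.43% and 20.1% of alveolar cells, and, with each cell thinned to 2000 UMIs and 82, 68, 88 and 0 shallower cells left out, in 48.9%, 6.20%, 3.35% and 3.53%. In T cells, a class that should lack class II, the unthinned shares were 15.3%, 1.41%, 0.549% and 1.80%, at median depths of 2796, 3108, 2934 and 3394 UMIs.

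Ratios between libraries were read against all 7049 genes with a mean of at least 10 CPM, 7 of the 8 genes among them, since Ciita lay under that limit. A gene was called when its ratio differed by at least 1.5-fold from that of the median gene, which itself stood at a log2 ratio of 0.14, 0.17, 0.23 and 0.25 in the 4 comparisons in the order given here. Each library enters 2 comparisons, so the comparisons are not independent of each other. In control PNX over control sham, 1 of 7 genes was higher (H2-DMb2) and 1 lower (H2-Eb1), where 3.46% of all genes were higher and 3.06% lower. The ratio was 1.94 for H2-DMb2 (1.70–2.22), and H2-Eb1 was 13.7-fold lower (12.2–15.4), the lowest ratio of all genes measured. Cd74 (1.14), H2-Aa (1.25), H2-Ab1 (1.16), H2-DMa (1.08) and H2-DMb1 (1.20) stayed near the median gene, and the 7 genes had a median log2 ratio of 0.08 relative to it.

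In null sham over control sham, 4 of the 7 genes were lower (H2-Ab1, H2-Eb1, H2-DMa and H2-DMb1) and 0 higher, where 6.67% of all genes were lower and 7.87% higher. H2-Eb1 was 24.4-fold lower (21.4–27.9), the next to lowest of all ratios. H2-DMa stood at 0.581 times its control level (0.527–0.641), H2-Ab1 at 0.709 (0.687–0.731) and H2-DMb1 at 0.745 (0.683–0.813). Cd74 (0.779) and H2-Aa (0.796) also had ratios under 1 but were not called, and H2-DMb2 stood at 1.13 (0.980–1.29). The median of the 7 genes was -0.60 on the log2 scale relative to the median gene. Without that centring only H2-Eb1 and H2-DMa remained called.

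In null PNX over null sham, 4 of the 7 genes were higher (Cd74, H2-Ab1, H2-DMa and H2-DMb1) and 0 lower, where 16% of all genes were higher and 20.2% lower. The ratios were 2.13 for Cd74 (2.11–2.15), 2.21 for H2-Ab1 (2.16–2.26), 2.40 for H2-DMa (2.22–2.59) and 1.98 for H2-DMb1 (1.85–2.11). H2-DMb2 (1.75) and H2-Aa (1.66) lay just under the limit, and H2-Eb1 at 1.36 (1.16–1.59) further under it. Ciita, outside the count, stood at 2.50 (1.70–3.75). The median of the 7 genes was 0.76.

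In null PNX over control PNX, 0 of the 7 genes were higher and 1 lower (H2-Eb1, at 0.760, 0.656–0.881), where 20.8% of all genes were higher and 21.7% lower. Cd74 stood at 1.46 (1.44–1.47) and H2-Ab1 at 1.35, while H2-Aa (1.06) and H2-DMb2 (1.02) were close to 1 before centring. The median of the 7 genes was 0.06, close to the median gene. The H2-Eb1 call was lost when Cldn4-positive cells or those under 2% Sftpc were left out or the centring was dropped. Of all called genes, 53.0%, 54.1%, 44.1% and 48.9% were higher in the 4 comparisons, against 76.1%, 78.7%, 68.7% and 69.6% without centring.

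Seen cell by cell, class II was spread over nearly all alveolar cells. A Cd74 UMI was found in 99.7%, 100%, 99.2% and 99.9% of them, and in 44.1%, 42.3%, 49.5% and 87.4% of T cells. The 8 genes together made up 0.775% of alveolar UMIs in control sham and 0.859% in control PNX, against 0.567% in null sham and 1.16% in null PNX. The median cell held 68.6, 74.5, 45.3 and 103 class II UMIs per 10000. Null PNX was the most spread out: its quartiles ran from 61.3 to 152 per 10000, against 47.3 to 91.9 in control sham. Cells under 20 per 10000 made up 2.33%, 1.30%, 14.4% and 7.81% of the 4 libraries. Null sham had the largest share of such cells, and that of null PNX came mainly from cells under 2% Sftpc, as given next.

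Within null PNX, Cldn4-positive cells had less class II than the others, mainly through the cells that the rule admitted by Cldn4 alone. Cd74 was at 7026 CPM in the 945 positive cells and 8694 in the 810 cells with Cldn4 at 0, a ratio of 0.808 (0.800–0.816), and the 8 genes summed stood at 0.801. Cells with Cldn4 at 0 could enter only with at least 2% Sftpc, however, and 395 of the positive cells had less. With that limit set for both, a comparison added after the data had been seen, Cd74 was at 8618 CPM in 550 positive cells, a ratio of 0.991 (0.981–1.00). The 8 genes summed were then at 0.988 (0.979–0.996), H2-Aa at 0.947 (0.928–0.967), H2-Ab1 at 1.01 (0.988–1.04), H2-DMa at 1.05 (0.976–1.14), H2-DMb1 at 1.04 (0.970–1.12) and H2-DMb2 at 1.04 (0.936–1.16). H2-Aa was thus the 1 gene whose interval lay under 1, while Krt8, a keratin of the transitional state, was at 2.07 (2.02–2.12). Cells under 20 class II UMIs per 10000 were 13.5% of all Cldn4-positive cells, but 0.545% of those with at least 2% Sftpc and 1.11% of the cells with Cldn4 at 0. In null sham, with 69 positive cells, the ratio without that limit was 1.11 for Cd74 (1.06–1.16), 1.04 for H2-Aa (0.960–1.12) and 1.14 for H2-Ab1 (1.03–1.26).

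**Figure D2:**
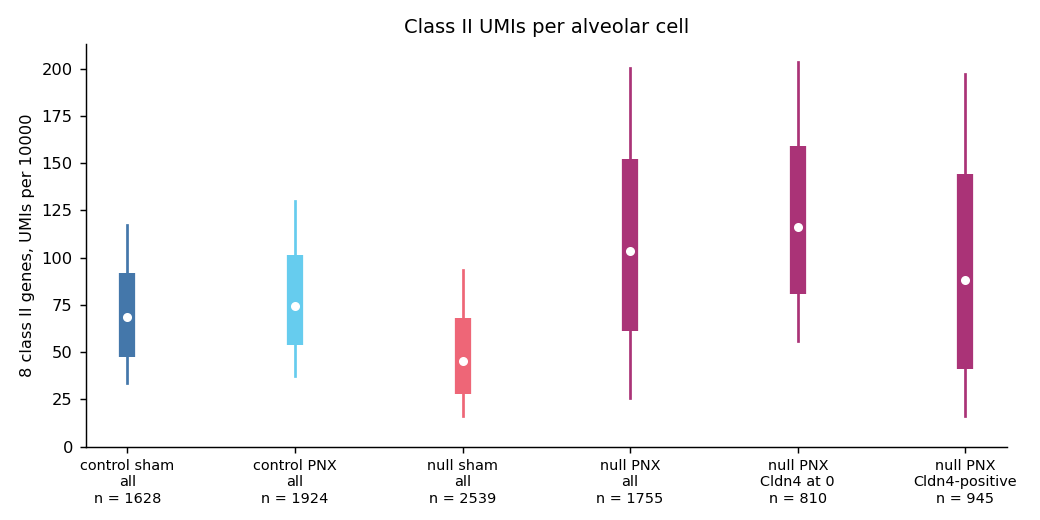
UMIs of the 8 class II genes per 10000 UMIs in each alveolar cell, for the 4 libraries and for null PNX divided by Cldn4; white points are medians, boxes run from the lower to the upper quartile, and lines run from the 10th to the 90th percentile. The null sham median is 45.3, the null PNX median 103, and the Cldn4-positive cells of null PNX, 395 of them under 2% Sftpc, reach lower than the Cldn4-negative ones.

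Across single alveolar cells thinned to 2000 UMIs, cells with more Cd74 tended to hold more H2-Aa, with a Spearman rho of 0.42, 0.44, 0.51 and 0.69 over 1546, 1856, 2451 and 1755 cells. The genes of lower count gave weaker relations: 0.09, 0.08, 0.08 and 0.17 for Cd74 with H2-DMb1, and 0.10, 0.04, 0.08 and 0.11 for H2-Aa with H2-Eb1. The 8 genes summed rose with Sftpc, on which the 2% limit was set, at 0.33, 0.39, 0.23 and 0.47. These are descriptions over cells that share a library and its free RNA.

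Set beside dendritic and B cells of the same sort, alveolar cells held a smaller share of class II transcripts. The 8 genes made up 9.78%, 8.47%, 7.26% and 7.48% of the UMIs of dendritic cells, and 4.35%, 3.95%, 3.85% and 3.29% of those of B cells. In macrophages they made up 6.79%, 2.21%, 1.30% and 1.89%, from few cells. The median macrophage held 21.2, 13.7, 7.52 and 21.9 class II UMIs per 10000, under the median alveolar cell of every library, while the upper quartile in control sham was 1172. The step in Cd74 from null sham to null PNX seen in alveolar cells was not seen in dendritic cells, at a ratio of 1.01 (0.984–1.04), nor in B cells, at 0.876. The Cd74 ratio was 1.42 (1.33–1.52) in macrophages and 3.33 (2.98–3.73) in T cells. In macrophages, however, 1 cell gave 46.5% of the Cd74 UMIs of null sham. T cells are a class that should lack class II. Their Cd74 was close to the alveolar proportion of Sftpc. The ratio of alveolar to T cell level was 5.46 in null sham and 3.49 in null PNX for Cd74, and 5.09 and 3.36 for Sftpc. Whether macrophages or T cells themselves shared the step was not tested. H2-DMb2 was at 1273, 1532, 1115 and 722 CPM in B cells, and the alveolar level was 0.0305, 0.0491, 0.0392 and 0.106 times that. H2-DMb1 was at 127, 192, 230 and 137 CPM in B cells, from 6, 3, 14 and 7 UMIs, and the alveolar level was 0.886, 0.704, 0.366 and 1.22 times that. For H2-DMb1 the interval of that ratio held 1 in all libraries but null sham (0.217–0.671), whereas for H2-DMb2 alveolar cells lay far under B cells.

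The high H2-Eb1 of control sham was not particular to alveolar cells. To set it apart from the amount of class II, H2-Eb1 was taken as a share of the UMIs of the 3 chain genes H2-Aa, H2-Ab1 and H2-Eb1. In alveolar cells this share was 14.9% in control sham (14.4–15.3) against 1.04% in control PNX (0.925–1.16), and 0.931% in null sham (0.819–1.05) and 0.680% in null PNX (0.620–0.744). In dendritic cells it was 20.3%, 0.371%, 0.448% and 0.321%, from 15, 27, 31 and 25 cells. In B cells, 18, 5, 26 and 10 in number, it was 16.9%, 2.17%, 1.32% and 1.87%. Macrophages (24, 10, 28 and 63 cells) had 8.63%, 0.292%, 1.37% and 0.921%, with 1 cell giving 54.0% of the H2-Eb1 UMIs of control sham macrophages. In these 4 classes control sham was the high library, and its interval overlapped none of the others. The few chain UMIs of T cells, which can be free RNA, gave 19.9%, 0.621%, 0.424% and 0.558%, and 1 cell gave 39.3% of the 28 H2-Eb1 UMIs of control sham. By level, H2-Eb1 in dendritic cells was 67.2-fold lower in control PNX than in control sham (48.5–95.8) and 67.6-fold lower in null sham (49.5–94.6).

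**Figure D3:**
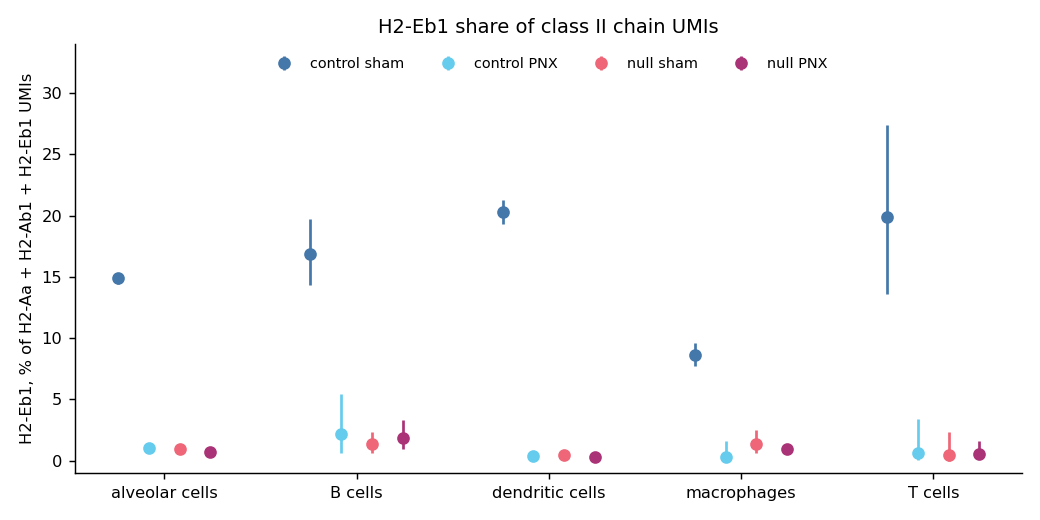
H2-Eb1 as a percentage of the UMIs of H2-Aa, H2-Ab1 and H2-Eb1 in 5 cell classes of the 4 libraries, with Clopper-Pearson 95% intervals. Control sham lies between 8.63% and 20.3%, and the other libraries at or under 2.17%.

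Single dendritic cells and macrophages of control sham with many chain UMIs were of either kind. Among dendritic cells and macrophages with at least 200 chain UMIs, control sham had 21 cells, of which 9 held at most 2% H2-Eb1 (the highest at 1.10%), 12 held at least 15% (from 16.3% to 30.5%) and 0 lay between. The 25, 23 and 18 such cells of control PNX, null sham and null PNX all held at most 2%, the highest at 1.63%. With the minimum of 200 set on H2-Aa plus H2-Ab1, which leaves H2-Eb1 out, control sham had 20 cells, 9 at or under 2% and 11 at or over 15%. These ranges were chosen after the values had been seen. Alveolar cells carried far fewer chain UMIs, so a share per cell is coarse. Of the 285 control sham alveolar cells with at least 20 UMIs of H2-Aa plus H2-Ab1 (median 26), 59 had 0 H2-Eb1, 100 (35.1%, these 59 included) had at most 5%, and 62 had over 20%. By the ranges used above, 63 of the 285 were at or under 2%, 105 lay between and 117 were at or over 15%. In the other libraries 97.5%, 97.6% and 99.3% of such cells had at most 5%, with 0 cells over 20%. The table does not divide a library by animal.

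**Figure D4:**
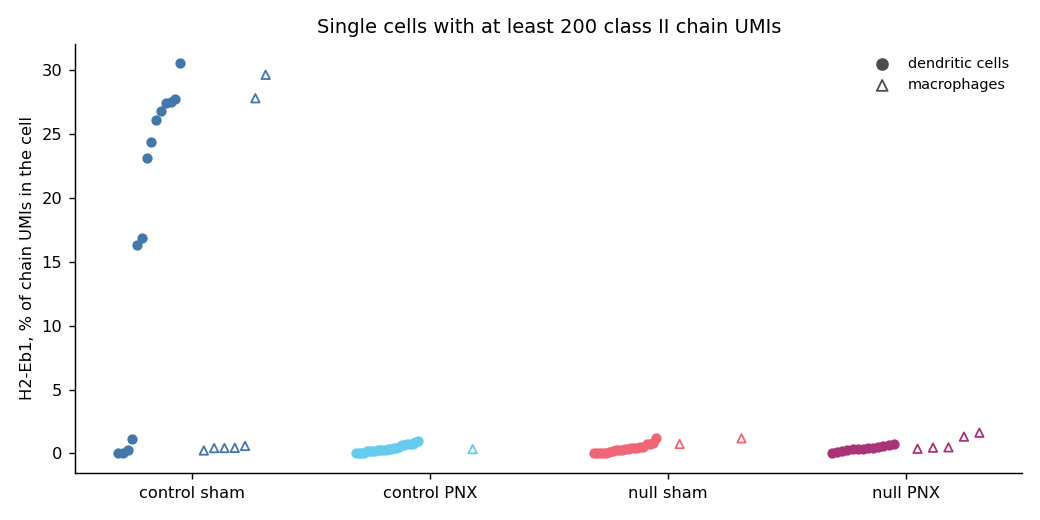
H2-Eb1 as a percentage of chain UMIs in each dendritic cell (filled circles) and macrophage (open triangles) with at least 200 chain UMIs, sorted within each class of each of the 4 libraries. In control sham 12 of 21 cells lie at or over 16.3% and 9 at or under 1.10%, and all cells of the other libraries lie at or under 1.63%.

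Genes with the most similar pattern were sought over 15 pools of a class in a library with at least 20 cells, by Pearson's r of log2(CPM + 1) among 7779 genes, as a description with no p. H2-Aa was most like Cd74 (0.99) and H2-Ab1 (0.99), then H2-DMb2 (0.97), H2-DMa (0.97) and H2-DMb1 (0.96). Ciita stood at 0.86 and H2-Eb1 at 0.68. Outside the 8 genes the closest were Tifa (0.95), Stx7 (0.95), Plbd1 (0.93), Ifi30 (0.93) and Rnase6 (0.92). The mean of each class was left in here, so these values also follow differences between cell classes. In alveolar cells Stx7 and Plbd1 were highest in null PNX, as was H2-Aa. Tifa, Ifi30 (108, 98.0, 163 and 109 CPM) and Rnase6 (19 UMIs in null sham) were highest in null sham, where H2-Aa was lowest. For H2-Eb1, with the mean of each class taken out, the closest were Gm10116 (0.93), Rpl13a-ps1 (0.88), Gm10250 (0.86), Gm8797 (0.86) and Wdr91 (0.85), of which Rpl13a-ps1 and Gm10250 are annotated as processed pseudogenes, and the other class II genes lay between 0.22 and 0.68. Gm10116 was at 1777, 135, 233 and 103 CPM in alveolar cells, so that it too was highest in control sham. Within control sham, however, among the alveolar cells with at least 20 chain UMIs, it did not divide the cells as H2-Eb1 did: it stood at 1828 CPM in the 59 cells with H2-Eb1 at 0 and at 1667 CPM in the 283 cells with H2-Eb1 over 5%.

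Class II RNA in alveolar droplets was set beside that of immune cells. Dendritic cells had 47655, 42533, 37887 and 38336 Cd74 CPM, and alveolar cells 9.76%, 12.5%, 9.56% and 20.1% of that. The summed markers of dendritic cells in alveolar cells were at 0.800%, 0.516%, 0.577% and 0.414% of their level in dendritic cells. For the B cell list the share was 0.364% to 0.530%, for macrophages 0.0490% to 0.336% and for T cells 0.124% to 0.369%. The class rules chose the immune cells by many of these markers. They also kept cells with Ptprc, or meeting another class rule, out of the alveolar cells. The low marker shares were thus partly set in advance, and the source of Cd74 in alveolar cells was not tested. Among the defining markers, those at 0 in alveolar cells included Ms4a1 in control sham, Cd79a, Marco and Adgre1 in control PNX, and Clec9a and Cd209a in null PNX. The summed macrophage markers, at 14.3, 5.40, 14.6 and 28.9 CPM, were also highest in null PNX. With every alveolar cell holding an immune marker UMI left out (1244, 1630, 1971 and 919 cells remained), Cd74 in null PNX over null sham stood at 0.86 on the centred log2 scale, the same as with all cells. In the other direction, Cd74 in T cells was at 510, 707, 664 and 2212 CPM. The ratio of alveolar to T cell level was 9.13, 7.50, 5.46 and 3.49 for Cd74 against 9.41, 7.42, 5.09 and 3.36 for Sftpc. T cells thus held Cd74 and Sftpc in nearly the proportion of alveolar cells, with 1 cell giving 29.3%, 31.6%, 14.4% and 20.5% of their Cd74 UMIs. Other class II genes departed from that proportion. Among them, on the lower side, were H2-Ab1 at 4.86, H2-Eb1 at 5.35 and H2-DMa at 2.79 in control sham. In control PNX H2-Ab1 was at 4.04 and H2-Aa at 5.52, and in null sham H2-DMa was at 2.52. The intervals of these lower ratios lay under the Sftpc ratio. On the higher side were, among others, H2-Aa at 11.7 in control sham (8.74–16.1), and in control PNX H2-DMb1 at 17.8 (4.93–147) and H2-DMb2 at 19.9 (3.56–787). These intervals held the Sftpc ratio, while that of H2-Aa in null PNX, at 3.82 (3.39–4.32), lay just over it.

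The neighbouring steps of presentation were counted from lists of other genes, to be read against the shares of all genes called: against control sham, 3.46% higher and 3.06% lower for control PNX but 7.87% and 6.67% for null sham; for null PNX, 16% and 20.2% against null sham but 20.8% and 21.7% against control PNX. Of the antigen processing and peptide loading list, 8 of 13 genes were measured: 0 were called in either comparison with control sham, 2 were higher in null PNX over null sham (Ctsb, 1.77, and Ctsd, 2.19, endosomal proteases) and 2 lower (Ifi30, a lysosomal thiol reductase, 0.671, and March8, a ubiquitin ligase, 0.528). In null PNX over control PNX, 4 were higher, Ctsd (2.87), Ctsl (2.40), Ctsb (1.99) and Ctsh (1.91), and March8 was lower (0.521), with a list median of 0.62. H2-Oa and H2-Ob, the partners that restrain H2-DM in B cells, stayed at or under 1.05 CPM in alveolar cells of every library, although both promoters held the X and Y pair. Of the class II regulators, 11 of 14 were measured and 0 were called in control PNX over control sham. Ifngr2, an interferon-γ receptor chain, stood higher at a ratio of 2.33 for null sham against control sham, of 1.84 for null PNX against null sham and of 4.33 against control PNX. Rfx5, the X box factor that works with Ciita, was lower in null PNX against null sham (0.605) and against control PNX (0.584), at 11.3, 11.8, 11.4 and 6.90 CPM. Rfxap, its partner, was lower in null sham over control sham (0.734) and higher in null PNX over null sham (1.82), and Creb1 (0.706) and Jak2 (0.769) were lower in null PNX over control PNX.

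Among T cell co-stimulation and checkpoint ligands, 4 of 12 were measured. Tnfsf9, the 4-1BB ligand, was at 2.61, 6.11, 24.1 and 31.7 CPM, and was called higher in control PNX (2.34) and null sham (9.23, 5.94–15.1), each against control sham, and in null PNX against control PNX (5.19). Icam1, the adhesion ligand of LFA-1, was higher in null PNX over null sham (2.40) and over control PNX (2.19), and Lgals9 over control PNX (2.77). Class I genes, the other arm of presentation, were mostly higher in null PNX over null sham, with 5 of 8 measured called, where 16% of all genes were higher (Psmb8 2.67, Tap1 2.33, H2-D1 2.13, Tap2 2.09 and Psmb9 2.06) and 0 lower, with a median of 0.82. In null sham over control sham 2 class I genes were lower (B2m, 0.621, and Psmb9, 0.598), and in control PNX over control sham 1 was lower (Psmb9, 0.722). In null PNX over control PNX 4 were higher (Tap1, Tap2, Psmb8 and H2-D1). Of 14 measured genes near the class II genes on chromosome 17, 1 was higher (Agpat1, 1.88) and 1 lower (Psmb9) in control PNX over control sham, and 3 were lower (Psmb9, H2-Ke6 at 0.696 and Ager at 0.389) in null sham over control sham. In null PNX over null sham 5 were higher (Ager and 4 class I genes already counted, Psmb9, Tap1, Psmb8 and Tap2) and 1 lower (Pbx2, 0.711). Over control PNX 3 were higher (Tap1, Psmb8 and Tap2, counted above too) and 2 lower (Ager and Pbx2). The lowest ratio among them against control sham was that of Ager, 0.389, where H2-Eb1 stood at 0.0731 and 0.0410.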

How the data were processed

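The authors deposited 1 table of raw UMI counts per gene and cell. The submitters' processing notes name Cell Ranger 2.1.0, Seurat 2.3.4 and the build mm10, with the annotation, the settings and any upstream removal of doublets not given in the sources used here. Library identity came from the barcode ending, per the labels. Libraries held 2111, 2252, 3344 and 2370 cells with 9868802 to 24897537 UMIs, and 54 barcodes occurred in 2 libraries. The filter asked for at least 500 genes and no more than 20% mitochondrial UMIs per cell. Class rules on summed marker UMIs were at least 3 for B cells (Cd79a, Cd79b, Ms4a1) and at least 2 for dendritic cells (Flt3, Xcr1, Clec9a, Cd209a), macrophages (Mrc1, Marco, Adgre1, C1qa) and T cells (Cd3d, Cd3e, Cd3g). No doublet caller was run; cells meeting more than 1 class rule, 87 of them alveolar, were left out. UMIs were summed per class and library and scaled to CPM, with 0.5 counts added for log2 ratios only. The method was checked on simulated counts. All 8 genes, at most 5 called genes of each list per comparison and the 5 genes most like H2-Aa and H2-Eb1 are named. Some listed genes are not reported here. Members and lists were chosen with earlier results of these data known. Of 17117 symbols, 16513 matched GENCODE M21. Python 3.11.15, numpy 2.4.6, scipy 1.17.1 and pandas 2.3.3 were used.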

Additional observations from a re-analysis of the deposited data

How the results depend on the processing

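Each result was recomputed with other cell filters, scalings, weights, thinning to 2000 UMIs and call limits, and, added after the data had been seen, without cells whose barcode 2 libraries share and without cells under 2% Sftpc. Of 101 recomputed counts and shares, 86 stayed within their error or within 1.5 times and 15 moved. Of 448 recomputed ratios of single class II genes, 90 left their counting interval, and of 256 list medians 2 moved. A reversal was looked for only in the ratios of called class II genes and in the Cldn4 ratio, and none was found. For the other counts, shares, ratios and list medians it was not looked for. At 2-fold, 1 gene was called in control PNX over control sham (H2-Eb1), 1 in null sham over control sham (H2-Eb1), 1 in null PNX over null sham (H2-DMa) and 0 in null PNX over control PNX. The last count was also 0 with Cldn4-negative cells alone, with cells of at least 2% Sftpc alone and without centring, and the null sham count was 2 without centring. In null PNX over null sham the other settings called 4 to 6 genes. The summed class II ratio of Cldn4-positive to Cldn4-negative cells, 0.801, was 0.988 with at least 2% Sftpc asked of both, 0.751 without cells holding an immune marker, 0.727 with genes over 1% of UMIs out of the total, 0.793 with cells weighted the same and 0.785 thinned. Thinned, the H2-Eb1 share was 15.5% in control sham and 0.570% in null PNX. The cause was not tested. Over all genes, the 460, 1025, 2552 and 2995 calls in the order of the report became 131, 313, 940 and 1359 at 2-fold, 4849, 6813, 8679 and 9275 with no limit on low genes and 120, 343, 811 and 967 at 50 CPM; thinning gave 727 in control PNX over control sham. No paired analysis was possible because each group is 1 library, and for that reason no replicate could be left out.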
